A study of Mus musculus with 22 samples.

Results

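The effect of diet on inguinal white adipose tissue (IWAT) outside the tumor-bearing pad was read from 11 of the 22 RNA-sequencing libraries of the series. These were the 5 control pads of lean mice and the 6 control pads of obese mice, picked by the diet and tissue in their labels. The comparison covered every gene that passed a filter on low counts, 14458 of 23420 gene symbols. All mice were female wildtype C57Bl/6 animals. Lean mice ate chow and obese mice a high fat diet (HFD) for 16 weeks, and they were about 20 weeks old when the left inguinal pad received E0771 cells, a C57Bl/6 mouse breast cancer line. The control pad was the right one, which received PBS and Matrigel without cells and was collected 2 weeks later. Both groups thus carried a tumor in the other pad and Matrigel in the sampled one. The paper reports larger tumors in the obese mice. Effects of the diet and of tumor size in the other pad therefore cannot be told apart here. The inguinal lymph node was dissected away and the most peripheral fat was left out, but the pad also holds mammary gland, vessels, nerves and immune cells. Each library is the pad of a different mouse.

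White adipocytes store fatty acids as triglyceride in a large lipid droplet, taking most of them from the blood and making some from glucose by de novo lipogenesis. Insulin, through SREBP-1c, and sugar, through ChREBP, raise the enzymes of that pathway, and dietary fat lowers them. In obesity adipocytes enlarge and secrete more leptin, and macrophages gather around dying adipocytes and take up their lipid. In bulk tissue, fewer cells of a type and less RNA per cell cannot be told apart.

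Between 5759775 and 8598108 reads per lean and between 6359270 and 7658505 reads per obese control library were counted on genes. Levels are in CPM, that is, reads scaled to the same normalized library total. The tissue matched its label: the 12 adipocyte markers summed to 24878 to 31129.6 CPM in lean and 23067 to 41688 CPM in obese control libraries. Obese control mice 1 and 3 stood apart through genes of other tissues. The summed level of 14 B cell and plasma cell genes was 1263 and 1169 CPM in them, 12.6 to 32.6 CPM in the other obese mice and 17.3 to 196 CPM in lean mice. For 17 T cell genes the sums were 604 and 637 CPM, 41.6 to 49.7 CPM and 20.8 to 102 CPM in the same order. For 15 skeletal muscle genes they were 7937 and 321 CPM, 79 to 105 CPM and 67.4 to 88.5 CPM. Among the lean mice the B cell sum was highest in mouse 2. For 15 pan-macrophage genes obese mice 1 and 3 had the highest sums, 1482 and 1333 CPM, against 933 to 1212 CPM in the other obese and 585 to 1271 CPM in lean mice. The part of such tissue in the results was not tested, and values without both mice are given beside list counts that moved by over 1.5 times and named genes that lost their call.

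**Figure D1:**
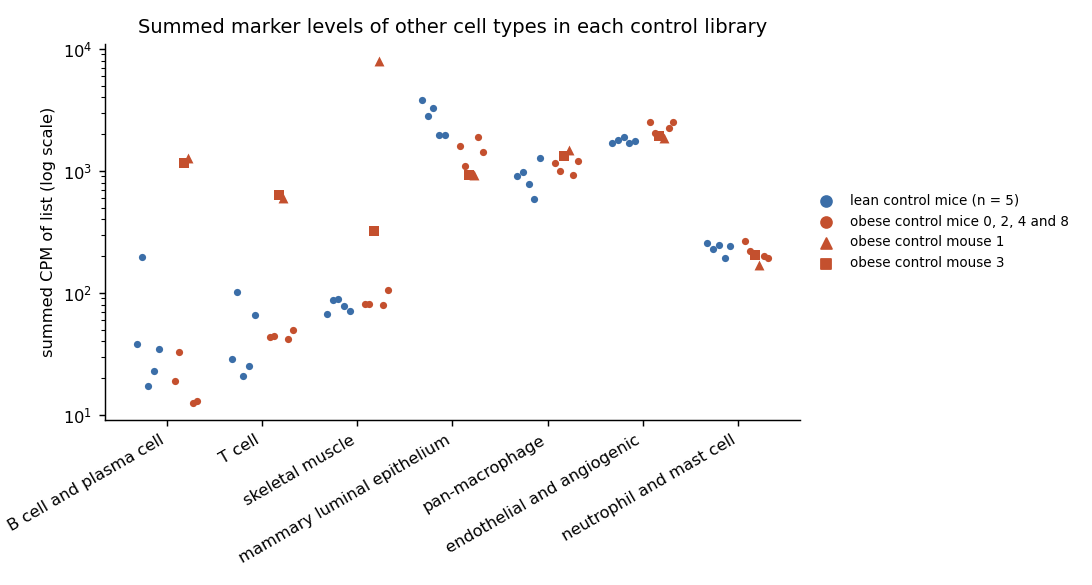
Summed CPM on a log scale of 7 lists of marker genes, 1 point per control library, blue for 5 lean and red for 6 obese mice, with a triangle for obese mouse 1 and a square for obese mouse 3. Those 2 libraries lie above all others for B cell, T cell, muscle and pan-macrophage genes.

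Of the 14458 genes, edgeR called 2468 (17.1%) different between obese and lean control IWAT at a Benjamini-Hochberg adjusted p under 0.05. Of these, 1380 (9.54%) were higher and 1088 (7.53%) lower in obese mice, and 518 of the rises and 412 of the falls were at least 2-fold. The split depended on the scaling, with 1068 higher and 1446 lower under upper-quartile normalization, and the median log2 fold change of all genes was 0.04. Of the 10 genes with the smallest p, 8 were lower in obese mice, namely Acaca, Tkt, Fasn, Aacs, Acly, Slc2a5, Elovl6 and Gpd2, and 2 were higher, Ryr2 and Pde7a. In 1477 called genes (10.2% of those tested) the 2 groups did not overlap, and over all tested genes they did not overlap in 13%, with each obese library above each lean one in 7.44%. Without obese mice 1 and 3, 1750 of 14505 genes (12.1%) were called, 1105 higher (7.62%) and 645 lower (4.45%), and 1524 of them were among the 2468 in the same direction. Without lean mouse 6 the count was 1606, with 902 higher and 704 lower.

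**Figure D2:**
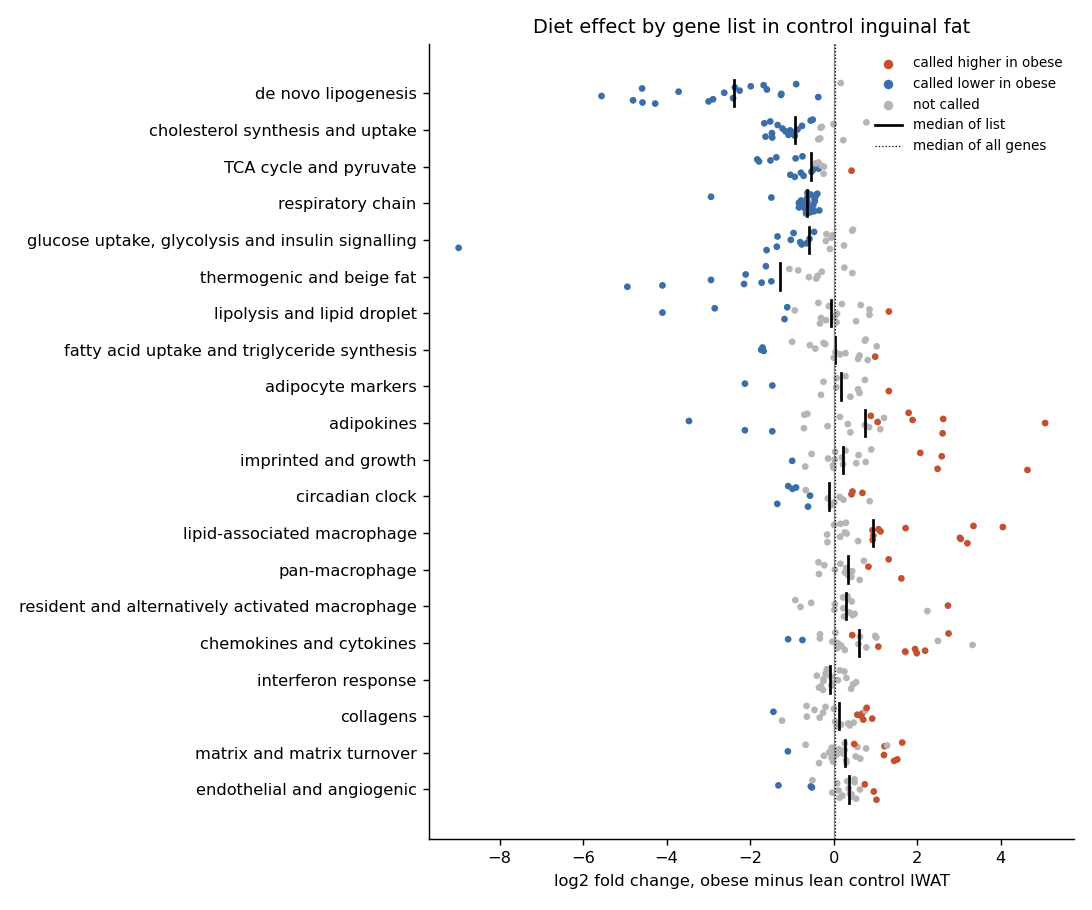
Log2 fold change between obese and lean control IWAT (x axis) of each tested gene in 20 gene lists, 1 point per gene, colored by the edgeR call; thick bars are list medians and the dotted line is the median of all genes, 0.04. The de novo lipogenesis and respiratory chain lists lie almost wholly below 0, and the lipid-associated macrophage list lies mostly above it.

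Genes of fatty acid synthesis had the lowest median log2 fold change among the lists described here. Of 20 tested genes of de novo lipogenesis, 19 fell and none rose, against 7.53% lower calls over all genes, and the median log2 fold change was -2.39. Fasn encodes fatty acid synthase and lies on chromosome 11, 120805846 to 120824547 of GRCm38, the annotation used here for coordinates. It measured 20099.8, 19754, 23253, 37445 and 12513 CPM in lean mice 0, 2, 3, 6 and 9 (the order used throughout), and 405, 649 and 1625 CPM as the lowest, median and highest of the 6 obese mice. Every obese library was far below every lean one. Fasn fell by 4.80 log2 units (SE 0.41, adjusted p by edgeR = 3.62e-07), where a log2 unit is a doubling and SE is the standard error of the fitted difference.

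Transcripts of the enzymes that supply fatty acid synthase fell with Fasn. Acaca, acetyl-CoA carboxylase, makes the malonyl-CoA that fatty acid synthase extends, and it had the smallest p of all genes. Its levels were 3081, 3549, 4199, 6527 and 2247 CPM in the 5 lean mice and 126, 170.0 and 194 CPM at the lowest, median and highest of the obese mice. It fell by 4.58 log2 units (SE 0.29, adjusted p by edgeR = 5.33e-09). Acly cleaves citrate to cytosolic acetyl-CoA and was 3709.9, 2832, 3767, 8344 and 2036 CPM in lean mice and 194, 213 and 243 CPM in obese mice. The obese values of both enzymes were close together, and no library overlapped the other group. Acly fell by 4.27 log2 units (SE 0.38, adjusted p by edgeR = 5.65e-07), and Acss2, which makes acetyl-CoA from acetate, fell by 3.71 log2 units (SE 0.46, adjusted p by edgeR = 2.51e-05). Among the sources of NADPH, Me1 (malic enzyme) fell by 2.62 log2 units (SE 0.43, adjusted p by edgeR = 0.000382), Pgd fell by 0.90, and G6pdx, the entry enzyme of the pentose phosphate pathway, was not called at 279.9 ± 83.3 CPM (mean ± SD, n = 5) in lean and 315 ± 78.6 CPM (n = 6) in obese mice. Tkt, the transketolase of that pathway, fell by 3.13 log2 units (SE 0.26, adjusted p by edgeR = 2.98e-07). The citrate carrier Slc25a1 fell by 1.98 log2 units.

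Downstream, transcripts of elongation and desaturation enzymes were lower as well. Elovl6, which extends palmitate to stearate, was 1118, 1469.7, 1666, 3609 and 594 CPM in lean mice and 29.5, 33.5 and 51.8 CPM at the lowest, median and highest of the obese mice. It had the largest fall of the list and fell by 5.56 log2 units (SE 0.55, adjusted p by edgeR = 2.82e-06). Scd1, the stearoyl-CoA desaturase, was 47956, 53764, 59762, 73437 and 28456 CPM in lean mice and 4160.0, 6748 and 10298 CPM in obese mice. Even the highest obese library was below the lowest lean one, and Scd1 fell by 2.89 log2 units (SE 0.36, adjusted p by edgeR = 2.38e-05). Its relative Scd2 fell by 2.41, and Fads1, a desaturase of polyunsaturated fatty acids, fell by 1.26.

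Genes that regulate the pathway fell as well. Mlxipl encodes ChREBP and was 139, 113, 135, 244 and 118 CPM in lean mice and 22.6, 32.6 and 36.8 CPM in obese mice, and it fell by 2.25 log2 units (SE 0.38, adjusted p by edgeR = 0.000411). Srebf1 encodes SREBP-1 and was 475, 365, 462, 652 and 379.9 CPM in lean mice and 117, 138 and 209 CPM in obese mice. Both regulators were lower in each obese mouse than in any lean mouse, and Srebf1 fell by 1.60 log2 units (SE 0.22, adjusted p by edgeR = 6.48e-05). Thrsp, a nuclear and cytosolic protein of lipogenic tissues, fell by 4.59 log2 units (SE 0.52, adjusted p by edgeR = 1.33e-05). Pnpla3, a lipid droplet protein under SREBP-1c and ChREBP control, fell by 2.37 log2 units (SE 0.41, adjusted p by edgeR = 0.000588). Among lean mice, mouse 6 had the highest level of every called lipogenic gene named here and mouse 9 the lowest of Fasn, Acaca, Acly, Elovl6 and Scd1. The list kept 18 falls of 20 without obese mice 1 and 3.

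**Figure D3:**
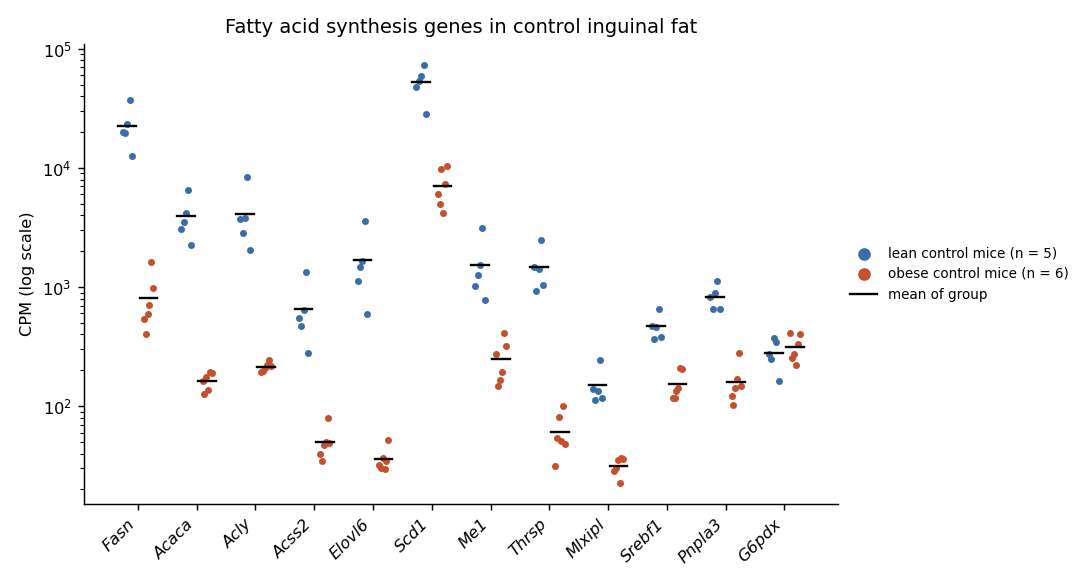
CPM on a log scale of 12 genes of fatty acid synthesis in each control library, blue for 5 lean and red for 6 obese mice, with group means as bars. The groups are apart for 11 of the 12 genes, and G6pdx overlaps.

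Since these genes moved together, their promoters were searched for motifs of the factors known to drive them. RefSeq promoters (250 bases before to 50 after the start, GRCm38.p6, the first listed per gene) matched 17 of the 21 genes of the list by current symbol. The letters TCACNCCAC, a sterol regulatory element, were found on either strand in 1 of the 17 (5.88%) and in 1.22% of all 27025 promoters. CCAAT, the binding letters of NF-Y, stood in 11 of 17 (64.7%) against 37.9% of all promoters, and CACGTG, the palindromic E-box, in 2 of 17 (11.8%) against 7.24%. For cholesterol synthesis and uptake, 16 of 24 genes matched and 15 of them (93.8%) held CCAAT. Matches are descriptions of these windows, not sites shown to be bound. The 4 promoters below are shown because Fasn and Acly fell by far, Mlxipl is the lipogenic promoter with TCACNCCAC and Hmgcs1 the cholesterol one, whose gene was not called. Capitals mark the matches to the motifs on either strand, 5′ to 3′ along each gene.
Fasn, chr11:120824498-120824797, minus strand: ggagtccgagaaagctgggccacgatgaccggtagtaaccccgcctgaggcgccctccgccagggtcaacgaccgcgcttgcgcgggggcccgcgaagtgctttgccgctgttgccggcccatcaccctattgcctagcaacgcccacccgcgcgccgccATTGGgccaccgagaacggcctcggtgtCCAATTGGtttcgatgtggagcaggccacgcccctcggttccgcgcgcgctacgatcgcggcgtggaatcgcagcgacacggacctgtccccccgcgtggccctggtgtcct
Acly, chr11:100527951-100528250, minus strand: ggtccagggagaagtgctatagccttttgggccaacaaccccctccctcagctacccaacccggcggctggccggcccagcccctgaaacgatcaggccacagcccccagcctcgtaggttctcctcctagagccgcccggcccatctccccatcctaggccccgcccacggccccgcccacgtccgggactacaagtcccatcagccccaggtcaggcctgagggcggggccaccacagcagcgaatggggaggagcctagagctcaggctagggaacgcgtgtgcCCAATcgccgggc
Mlxipl, chr5:135106641-135106940, plus strand: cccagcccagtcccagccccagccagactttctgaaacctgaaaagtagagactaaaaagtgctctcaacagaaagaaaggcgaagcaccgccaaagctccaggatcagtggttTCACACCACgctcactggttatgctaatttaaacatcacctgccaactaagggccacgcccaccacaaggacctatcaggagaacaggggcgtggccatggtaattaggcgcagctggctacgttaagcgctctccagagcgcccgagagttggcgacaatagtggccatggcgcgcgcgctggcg
Hmgcs1, chr13:119690101-119690400, plus strand: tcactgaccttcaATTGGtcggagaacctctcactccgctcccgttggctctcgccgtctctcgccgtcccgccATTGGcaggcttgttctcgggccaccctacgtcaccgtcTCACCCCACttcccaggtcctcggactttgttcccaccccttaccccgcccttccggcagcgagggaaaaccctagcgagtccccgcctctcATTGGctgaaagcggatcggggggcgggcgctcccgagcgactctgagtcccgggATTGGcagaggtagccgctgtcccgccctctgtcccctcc
In Fasn the capitals are 3 CCAAT matches, 2 of which overlap on opposite strands, and in Acly a single CCAAT. In Mlxipl they are the TCACNCCAC match alone, and in Hmgcs1 that motif and 4 CCAAT matches.

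Genes of cholesterol synthesis and uptake fell by smaller amounts and not throughout. Of 24 tested genes, 17 fell and none rose, against 7.53% lower calls over all genes, and the median log2 fold change was -0.94. Sqle, the squalene epoxidase, was 51.6, 46.4, 59.6, 89 and 26.8 CPM in lean mice and 14.7, 18.8 and 25.5 CPM in obese mice, without overlap, and fell by 1.48 log2 units (SE 0.31, adjusted p by edgeR = 0.00245). In contrast, Hmgcs1, which makes HMG-CoA, was 337 ± 100.3 CPM (mean ± SD, n = 5) in lean and 396 ± 106 CPM (n = 6) in obese mice and did not pass the test, with a log2 difference of 0.23 (SE 0.22, adjusted p by edgeR = 0.526). Aacs, which charges acetoacetate for sterol and fatty acid synthesis, was among the 10 smallest p and fell by 2.61 log2 units (SE 0.23, adjusted p by edgeR = 5.65e-07). Without obese mice 1 and 3, 10 of the 24 genes were called lower, with a median of -0.86.

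Fructose and glucose uptake genes were lower too. Slc2a5, the fructose transporter GLUT5 (chromosome 4, 150119283 to 150144169), had the largest fall of all genes named here. It was 33.7, 28.3, 37.4, 97 and 27.3 CPM in the lean mice and 0, 0.062 and 0.163 CPM at the lowest, median and highest of the obese mice. The transcript was almost undetected in obese control IWAT, and the ratio of lean to obese was 617-fold (95% counting interval 211 to 2996, 1408 counts against 3). The interval covers counting error only. Slc2a4, the insulin-responsive transporter GLUT4, was 199, 199, 228, 422 and 196 CPM in lean mice and 57, 88.5 and 102 CPM in obese mice and fell by 1.61 log2 units (SE 0.38, adjusted p by edgeR = 0.00657). Lean mouse 6 was highest for both transporters. Of 19 tested genes of glucose uptake, glycolysis and insulin signalling, 11 fell and none rose, against 7.53% lower calls over all genes. Without obese mice 1 and 3, 7 of these genes fell. Irs1, a substrate of the insulin receptor, fell by 1.35 log2 units (SE 0.30, adjusted p by edgeR = 0.00468), and Pik3r1, the regulatory subunit of PI3-kinase, fell by 0.96 log2 units (SE 0.20, adjusted p by edgeR = 0.0022). Hexokinase 2 (Hk2) fell by 1.36, whereas the insulin receptor itself (Insr) was 295 ± 34.3 CPM (mean ± SD, n = 5) in lean and 283 ± 30.7 CPM (n = 6) in obese mice, a difference of -0.06 that was not called. Gpd2, the mitochondrial glycerol-3-phosphate dehydrogenase, fell by 2.42 log2 units (SE 0.25, adjusted p by edgeR = 4.06e-06).

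Genes of the path from pyruvate to citrate were lower together with those of lipogenesis. Of 21 genes of pyruvate entry and the TCA cycle, 15 fell and 1 rose, against 7.53% and 9.54% of all genes, with a median of -0.53. The count of falls was 9, with a median of -0.48, without obese mice 1 and 3. Pdhb and Pdha1, subunits of pyruvate dehydrogenase, had the clearest falls. Pdhb was 232, 264, 331, 483 and 217 CPM in lean mice and 72.4, 83.2 and 104 CPM in obese mice, and it fell by 1.83 log2 units (SE 0.22, adjusted p by edgeR = 1.52e-05). Pdha1 was 534, 746, 850.2, 1053 and 545 CPM in lean mice and 222, 268 and 297 CPM in obese mice and fell by 1.51 log2 units (SE 0.18, adjusted p by edgeR = 1.52e-05). Neither gene overlapped between the groups. Pcx, pyruvate carboxylase, fell by 1.79 log2 units (SE 0.38, adjusted p by edgeR = 0.0029), and Mpc1, a subunit of the mitochondrial pyruvate carrier, fell by 1.37 log2 units (SE 0.29, adjusted p by edgeR = 0.00254). The single rise was Idh2, the mitochondrial NADP-dependent isocitrate dehydrogenase, by 0.43.

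All 28 of 28 tested nuclear genes of the respiratory chain were called lower, with a median of -0.63. Their log2 fold changes ranged from -2.94 to -0.34. Sdhb of complex II was 105, 129, 159, 156 and 112 CPM in lean mice and 65.6, 74.1 and 85.1 CPM in obese mice, and Cyc1 of complex III was 82.9, 104, 147, 154 and 99.8 CPM and 49.6, 64.3 and 79.9 CPM. Both genes were apart between the groups, and Sdhb fell by 0.83 log2 units (SE 0.11, adjusted p by edgeR = 3.82e-05). The largest fall of the list was that of Cox8b, the complex IV isoform of muscle and brown fat, by 2.94. Without obese mice 1 and 3, 19 of 28 were called, with a median of -0.53. Of 18 genes of mitochondrial fatty acid oxidation, 4 fell and 1 rose, against 7.53% and 9.54% of all genes. The rise was Cpt1a, the carnitine palmitoyltransferase that admits long-chain fatty acids to mitochondria. It was 65.8, 63.5, 65.1, 45.4 and 102 CPM in lean mice and 154, 186 and 214 CPM in obese mice, apart in all mice, and rose by 1.45 log2 units (SE 0.19, adjusted p by edgeR = 5.59e-05). Ppargc1a, a coactivator of mitochondrial genes, fell by 1.73 log2 units (SE 0.37, adjusted p by edgeR = 0.00349). In branched-chain amino acid breakdown all 19 tested genes had a log2 fold change below 0 and 4 were called (2 without obese mice 1 and 3), Ivd with the largest fall (-0.74).

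Thermogenic genes, which mark beige adipocytes within white fat, were low in lean and lower in obese control IWAT. Of 16 tested genes, 8 fell and none rose, against 7.53% lower calls over all genes, with a median of -1.28. Ucp1, the uncoupling protein, was 6.85, 44.1, 33.1, 32.6 and 5.59 CPM in lean mice and 0.144, 0.77 and 1.31 CPM in obese mice. Lean mice varied widely but no obese mouse reached the lowest of them, and Ucp1 fell by 4.94 log2 units (SE 0.95, adjusted p by edgeR = 0.00139). Cidea, a droplet protein of brown and beige fat, was 15, 62.4, 65.1, 82 and 28.1 CPM in lean mice and 2.12, 2.8 and 3.92 CPM in obese mice and fell by 4.10 log2 units (SE 0.59, adjusted p by edgeR = 0.000103). Dio2, which activates thyroid hormone, fell by 2.15 log2 units (SE 0.50, adjusted p by edgeR = 0.00608). Prdm16, a determinant of the beige fate, was 22.7 ± 6.32 CPM (mean ± SD, n = 5) in lean and 17 ± 5.2 CPM (n = 6) in obese mice and was not called. Adrb3, the β3-adrenergic receptor that triggers lipolysis and thermogenesis, was 174, 222, 216, 213 and 235 CPM in lean mice and 18.9, 25.1 and 52.3 CPM in obese mice. The groups lay far apart, and Adrb3 fell by 2.85 log2 units (SE 0.46, adjusted p by edgeR = 0.000275).

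In the fit to all 22 libraries most genes of triglyceride storage and mobilization were not called, and the calls went in both directions. Of 20 lipolysis and lipid droplet genes, 4 fell and 1 rose, and of 19 genes of fatty acid uptake and triglyceride synthesis, 3 fell and 1 rose, against 7.53% lower and 9.54% higher calls over all genes. Fitted to the 11 control libraries alone, where 3270 genes were called in all, the first list had 5 falls and 4 rises and the second 5 and 6. The first had 2 falls without obese mice 1 and 3. The rise in the first list was Cidec, which enlarges lipid droplets. It was 815, 679.6, 879.7, 617 and 947 CPM in lean mice and 1335, 1887 and 2799.6 CPM in obese mice and rose by 1.32 log2 units (SE 0.36, adjusted p by edgeR = 0.0159). Gpam and Agpat2, the first acyltransferases of triglyceride synthesis, fell by 1.68 and 1.74. Cd36, a fatty acid translocase, was 2336 to 3401 CPM in lean and 3628 to 6387 CPM in obese mice, higher in all 6, yet its difference of 0.82 (SE 0.32, adjusted p by edgeR = 0.0863) was not called. Cd36 was called in the fit to the 11 control libraries alone (edgeR adjusted p = 0.00905) and without the tumor-associated library of obese mouse 4 (0.0169). Plin1 and Adipoq, the perilipin and adiponectin genes, overlapped between the groups at 761 ± 73.8 against 617 ± 157 CPM and 1523 ± 188 against 2011 ± 468 CPM (SD, n = 5 and n = 6). Pparg, the master regulator of adipocyte genes, did so too, at 201 ± 30.4 against 167 ± 32 CPM. Of 18 adipogenic transcription factors and related genes, 3 fell and 1 rose, the last being Mest, against 1 and 2 without obese mice 1 and 3.

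Genes of secreted adipocyte products diverged, and the receptor gene Npr3 is given with them. Among 21 tested adipokines, 7 rose and 3 fell, against 9.54% and 7.53% of all genes, with a median of 0.75. Lep, leptin (chromosome 6, 29060220 to 29073877), was 892, 521, 963, 604 and 445 CPM in lean mice and 2583, 4064 and 5601 CPM at the lowest, median and highest of the obese mice. The least of the obese mice was above every lean mouse, and Lep rose by 2.61 log2 units (SE 0.39, adjusted p by edgeR = 0.000133). Npr3, the natriuretic peptide clearance receptor, was 868, 576, 957, 569 and 461 CPM in lean mice and 1673, 2418 and 3121 CPM in obese mice. It too was higher in each obese mouse, and Npr3 rose by 1.80 log2 units (SE 0.36, adjusted p by edgeR = 0.00194). Cfd, the complement protease adipsin, and Retn, resistin, went the other way. Cfd was 2829, 2392, 3308, 2569 and 3828 CPM in lean mice and 430.4, 703 and 1084 CPM in obese mice and fell by 2.12 log2 units (SE 0.44, adjusted p by edgeR = 0.00247). Retn fell by 1.47 log2 units (SE 0.35, adjusted p by edgeR = 0.00706). Gm6484, the older symbol of the lipoprotein lipase inhibitor Angptl8, which insulin induces, fell by 3.47 log2 units (SE 0.55, adjusted p by edgeR = 0.000265).

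Some imprinted genes and secreted growth regulators were among the clear rises. Mest, an imprinted gene known to track with fat mass expansion (chromosome 6, 30723547 to 30748465), was 48.8, 44.8, 30.5, 14.8 and 22 CPM in lean mice and 356, 728 and 1474 CPM in obese mice. Its groups were far apart, and it rose by 4.64 log2 units (SE 0.53, adjusted p by edgeR = 1.33e-05). Sfrp5, a secreted WNT inhibitor, was 11.7, 7.17, 5.82, 4.4 and 10.7 CPM in lean mice and 147, 244 and 462 CPM in obese mice and rose by 5.07 log2 units (SE 0.60, adjusted p by edgeR = 1.52e-05). The obese mice varied more widely than the lean mice in both, yet no library of one group reached the other. Peg3 and Peg10, imprinted like Mest, rose by 2.49 and 2.59, and Bmp3, a ligand of the BMP family, by 2.08. Peg3 was 129.7, 151, 137, 74.3 and 213 CPM in lean mice and 499, 807 and 1108 CPM in obese mice, without overlap. Of 19 imprinted and growth genes, 4 rose, 1 fell and 14 were not called, with a median of 0.22. Over all genes 9.54% were called higher and 7.53% lower. Without obese mice 1 and 3 the list had 4 rises and 0 falls. Exons of Mest overlap those of Copg2 on the other strand.

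The largest rises of all genes included several genes known from other tissues. Tph2, the neuronal tryptophan hydroxylase of serotonin synthesis (chromosome 10, 115078641 to 115185022), was 0, 0.7, 0.153, 0.176 and 0.339 CPM in lean mice and 11.9, 44.6 and 104 CPM in obese mice, and it rose by 7.53 log2 units (SE 0.82, adjusted p by edgeR = 1.06e-05). Itgad, the integrin αD chain of macrophages, was 0.232, 0.35, 0.613, 0.176 and 0.509 CPM in lean mice and 15.7, 45.2 and 136 CPM in obese mice. It rose by 7.30 log2 units (SE 0.78, adjusted p by edgeR = 7.58e-06), and its exons overlap those of Cox6a2 on the other strand. The 2 transcripts are close to absent in lean control IWAT, and each was above 10 CPM in all 6 obese mice. Chrm4, a muscarinic receptor, differed by a ratio of 125-fold (95% counting interval 22.2 to 4986, 165 counts against 1), Hmga2, a chromatin protein of growing cells, by 79.3-fold (95% counting interval 26.9 to 387, 313 counts against 3), and Vsig8 by 38.8-fold (95% counting interval 10.5 to 325, 102 counts against 2). Limma voom did not call Hmga2 (adjusted p = 0.136). Lipf, gastric lipase, was 0.464, 0.175, 0, 0 and 0.339 CPM in lean mice and 2.73, 14.6 and 26.7 CPM in obese mice and rose by 5.94 log2 units (SE 0.69, adjusted p by edgeR = 1.52e-05). Gabrr2, a GABA receptor subunit, rose by 5.26 log2 units (SE 0.60, adjusted p by edgeR = 1.39e-05), and Ryr2, the calcium release channel of the heart, rose by 4.61 log2 units (SE 0.36, adjusted p by edgeR = 2.07e-07). Ryr2 was 2.32, 1.05, 1.99, 1.41 and 1.7 CPM in lean mice and 28.1, 44.2 and 53.4 CPM in obese mice, apart in all of them. Pde7a, a cyclic AMP phosphodiesterase, had a small but tight rise, from 71.5, 56.7, 56.7, 72.3 and 61.4 CPM in lean mice to 129, 156 and 162 CPM in obese mice, and it rose by 1.26 log2 units (SE 0.11, adjusted p by edgeR = 5.65e-07).

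**Figure D4:**
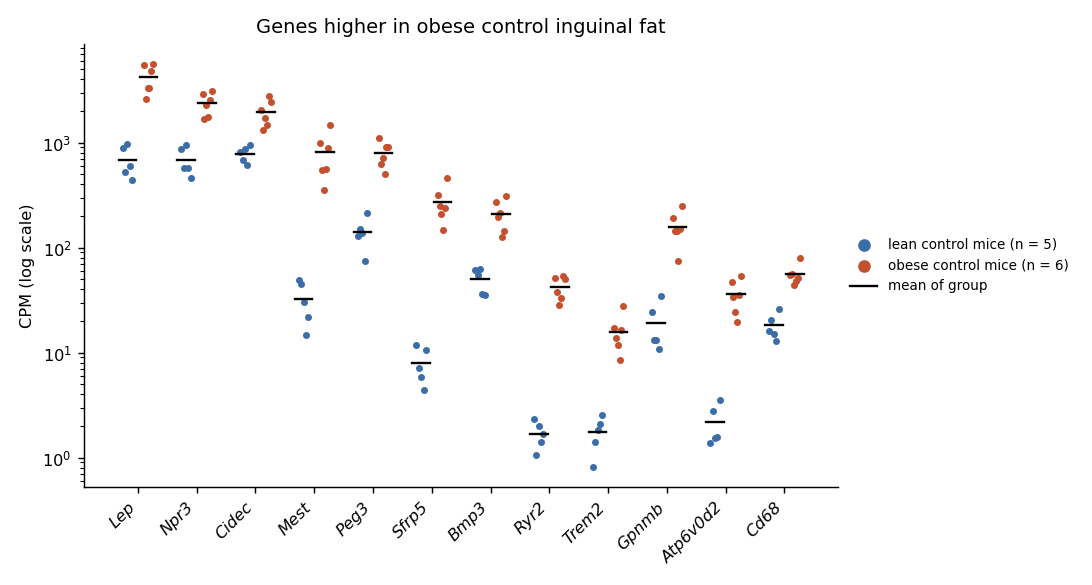
CPM on a log scale of 12 genes higher in obese control IWAT in each library, blue for 5 lean and red for 6 obese mice, with group means as bars. No lean library reaches an obese one for any of the 12 genes.

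Among the largest falls outside metabolism, Abcc8, the sulfonylurea receptor, was 17.5, 18.7, 14.5, 16.2 and 8.31 CPM in lean mice and 0.326, 1 and 1.38 CPM in obese mice and fell by 4.02 log2 units (SE 0.50, adjusted p by edgeR = 2.82e-05). Mmd2 and Kcng4, a membrane protein and a potassium channel subunit, fell by 5.04 and 4.40 from lean levels of 1.74 to 40.9 and 1.68 to 7.74 CPM. The obese libraries reached no more than 1.01 CPM of Mmd2 and 0.375 CPM of Kcng4.

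In the lipid-associated macrophage list, 11 of 20 genes were called higher and 0 lower, against 9.54% higher calls over all genes. The list median was 0.93. These macrophages take up lipid from adipocytes in obese fat. Trem2, the lipid receptor that defines them, was 0.813, 1.4, 1.84, 2.11 and 2.54 CPM in lean mice and 8.5, 15 and 27.6 CPM in obese mice and rose by 3.20 log2 units (SE 0.53, adjusted p by edgeR = 0.000407). Gpnmb, a lysosomal glycoprotein, was 24.4, 13.3, 13.2, 10.7 and 34.4 CPM in lean mice and 75.3, 148 and 249.6 CPM in obese mice and rose by 3.04 log2 units (SE 0.47, adjusted p by edgeR = 0.000204). Each obese mouse was above all lean mice for both. Atp6v0d2, a proton pump subunit, Mmp12, the macrophage elastase, and Spp1, osteopontin, rose by 4.05, 3.35 and 3.02. Lgals3, galectin-3, rose by 1.72 log2 units (SE 0.21, adjusted p by edgeR = 2.53e-05), and Ctsl, cathepsin L, rose by 1.12 log2 units (SE 0.17, adjusted p by edgeR = 0.00017). The list kept 9 rises of 20 without obese mice 1 and 3. Its genes summed to 8404 to 9931 CPM in lean and 9877 to 17187 CPM in obese mice. The 15 pan-macrophage genes summed to only 585 to 1271 CPM in lean and 933 to 1482 CPM in obese mice. Which cells the transcripts of the list came from was not tested.

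Of 15 pan-macrophage genes, 3 rose, against 9.54% higher calls over all genes, and 12 had a log2 fold change above 0, with a median of 0.35. Without obese mice 1 and 3, 1 rose and 10 had a log2 fold change above 0, with a median of 0.36. Cd68, an endosomal protein of macrophages, was 16.3, 20.6, 15, 12.8 and 26.1 CPM in lean mice and 43.6, 53.6 and 80.1 CPM in obese mice and rose by 1.62 log2 units (SE 0.30, adjusted p by edgeR = 0.00107). Emr1, the F4/80 antigen, was 52.4 to 82.2 CPM in lean and 73.6 to 119 CPM in obese mice, an overlapping difference of 0.62 (SE 0.23, adjusted p by edgeR = 0.071). Emr1 was called in the fit to the 11 control libraries alone (edgeR adjusted p = 0.0125) and without the tumor-associated library of obese mouse 2 (0.0479) or 4 (0.0357). Lyz2 and Mrc1 (lysozyme and the mannose receptor) were not called, at 364 ± 119 against 407 ± 98 CPM and 259 ± 55.2 against 308 ± 64.3 CPM (SD, n = 5 and n = 6). Of 16 genes of resident and alternatively activated macrophages, 13 had a log2 fold change above 0, 1 rose and none fell, against 0 and 0 without obese mice 1 and 3. The rise was Chi3l3, a chitinase-like protein, with 2.74 (SE 0.79, adjusted p by edgeR = 0.0206). Its level was 5.75 CPM in obese mouse 3 and 0 to 0.509 CPM in lean mice, and the call was lost without obese mouse 3 (adjusted p = 0.0831), lean mouse 0 (0.0574) or lean mouse 6 (0.053). Marco, a scavenger receptor and 1 of the 12 largest rises, was 1.74, 0, 0.306, 0.528 and 1.36 CPM in lean mice and 3.58, 4.99 and 67.3 CPM in obese mice, and its log2 fold change of 4.86 (SE 1.03, adjusted p by edgeR = 0.00294) became 2.36 (edgeR adjusted p = 0.0406) without obese mice 1 and 3, and limma voom did not call it (adjusted p = 0.0764).

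Chemokines of monocytes were called higher at low levels. Of 26 tested chemokines and cytokines, 7 rose and 2 fell by edgeR, against 9.54% higher and 7.53% lower edgeR calls over all genes. Limma called 3. Ccl2, the main monocyte chemoattractant, was 2.55, 1.92, 4.9, 4.4 and 2.88 CPM in lean mice and 5.75, 12.4 and 25.3 CPM in obese mice and rose by 1.99 log2 units (SE 0.45, adjusted p by edgeR = 0.0049). Ccl7, its neighbor, rose by 1.95 log2 units (SE 0.52, adjusted p by edgeR = 0.0144), and Il1rn, the interleukin-1 receptor antagonist, rose by 2.75 log2 units (SE 0.42, adjusted p by edgeR = 0.000162). Outside the list, Ccr2, the receptor for Ccl2, fell by 0.99 log2 units (SE 0.25, adjusted p by edgeR = 0.00905), from 51.7 to 115 CPM in lean to 31.8 to 56.5 CPM in obese mice. Without obese mice 1 and 3, 4 of the list rose and 0 fell. Among 18 acute-phase and complement genes, 4 rose and 1 fell, against 9.54% and 7.53% of all genes, with a median of 0.18. Serpina3n, a protease inhibitor, rose by 1.28, and Hp, haptoglobin, rose by 1.77 log2 units (SE 0.43, adjusted p by edgeR = 0.00708). None of 20 interferon response genes was called by edgeR, 0 had an unadjusted p under 0.05 and DESeq2 called 0, with a median of -0.08. Of 15 genes of MHC class II presentation edgeR called none, 4 had an unadjusted p under 0.05 and DESeq2 called 1. Their median of 0.23 became -0.64 without obese mice 1 and 3, whose summed levels were 2748 and 2790 CPM. The sums were 889 to 1156 CPM in the other obese and 973 to 2061 CPM in lean mice. Of 18 cell cycle genes edgeR called none, 4 had an unadjusted p under 0.05 and DESeq2 called 2, and limma called none in any of these lists. Among the cell cycle genes 17 had a log2 fold change above 0, with a median of 0.55, and all 18 did without obese mice 1 and 3. With the 11 control libraries alone edgeR called 1 interferon response gene and 2 cell cycle genes.

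Basement membrane and matricellular genes were among those that rose in the extracellular matrix. Of 22 collagen chains, 15 were not called, 6 rose and 1 fell, with a median of 0.13. Over all genes 9.54% were called higher and 7.53% lower. The collagen rises were the type IV chains Col4a1 and Col4a2, whose exons overlap on opposite strands (0.71 and 0.92), the 3 type VI chains Col6a1, Col6a2 and Col6a3 (0.65, 0.57 and 0.68) and Col18a1 (0.79). Without lean mouse 2, Col4a1, Col6a2, Col6a3 and Col18a1 lost their edgeR calls (adjusted p = 0.0593, 0.0596, 0.0607 and 0.0632). Col4a1 also did without lean mouse 0 (0.0505) or obese mouse 8 (0.0507), and Col18a1 without lean mouse 3 (0.0559). Col3a1 and Col1a1, chains of the fibrillar collagens, were not called, at 3571 ± 537 against 4051 ± 1153 CPM and 734 ± 154 against 774 ± 234 CPM (SD, n = 5 and n = 6). Sparc, a matricellular protein that binds collagen, was 1388, 1229.7, 1511, 1447 and 1313 CPM in lean mice and 2821, 3819 and 5294 CPM in obese mice, apart in every mouse, and rose by 1.52 log2 units (SE 0.25, adjusted p by edgeR = 0.000344). Tnc, tenascin C, rose by 1.45 log2 units (SE 0.39, adjusted p by edgeR = 0.0148). Of 29 matrix and matrix turnover genes, 6 rose and 1 fell, against 9.54% and 7.53% of all genes, with a median of 0.27. Wisp2, a WNT-induced secreted protein of progenitors, rose by 1.98 log2 units (SE 0.45, adjusted p by edgeR = 0.00517), whereas Pdgfra, which marks progenitors and fibroblasts, was 263 ± 53 against 254 ± 41.6 CPM and was not called. Of 23 progenitor and fibroblast genes, 1 rose and 1 fell, against 2 and 1 without obese mice 1 and 3.

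Of 21 endothelial and angiogenic genes, 3 rose and 3 fell, near the shares over all genes (9.54% and 7.53%). The fit to the 11 control libraries alone called 9 higher and 4 lower, and without obese mice 1 and 3 edgeR called 3 higher and 1 lower. Pecam1, the CD31 antigen, was 165, 188, 178, 160.3 and 189 CPM in lean mice and 308, 357 and 401 CPM in obese mice, apart in all mice, and rose by 1.03 log2 units (SE 0.22, adjusted p by edgeR = 0.00322). Angpt1, the angiopoietin that stabilizes vessels, fell by 1.32 log2 units (SE 0.27, adjusted p by edgeR = 0.00211), and Vegfa, the vascular growth factor, fell by 0.52, which became -0.40 (edgeR adjusted p = 0.0594) without obese mice 1 and 3. Emcn, another endothelial marker, was 32.3 ± 4.51 against 31.6 ± 5.58 CPM (SD, n = 5 and n = 6) and was not called.

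Several smaller groups had mixed changes, beside 9.54% higher and 7.53% lower calls over all genes. In the circadian clock, 3 of 16 genes rose and 6 fell. Npas2 and Arntl, activators of the clock, fell by 1.35 and 0.61, and Dbp and Nr1d2, which they drive, rose by 0.69 and 0.43. Times of collection are not given in the sources used here. Among 22 genes of oxidative stress and detoxification, 4 rose and 3 fell, with a median of 0.06. Gpx3, the secreted glutathione peroxidase, was 437, 388, 602, 314 and 605 CPM in lean mice and 65.7, 111 and 191 CPM in obese mice and fell by 2.01 log2 units (SE 0.38, adjusted p by edgeR = 0.00132). Hmox1, heme oxygenase 1, rose by 1.32 log2 units (SE 0.31, adjusted p by edgeR = 0.00652), and Sod3, the extracellular superoxide dismutase, rose by 1.14. Of 22 lysosomal and endoplasmic reticulum stress genes, 5 rose and none fell.

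Luminal genes of the mammary epithelium, which shares the pad, had lower summed levels in obese control IWAT. All 18 tested luminal genes had a log2 fold change below 0 (median -1.04), of which edgeR called 5, limma 11 and edgeR without obese mice 1 and 3 only 1. Over all genes edgeR called 7.53% lower and 9.54% higher, and 4.45% lower without obese mice 1 and 3. The sums below are of luminal genes. The summed level of the luminal list was 1957 to 3801 CPM in lean and 928 to 1892 CPM in obese mice, apart between the groups. Esr1, the estrogen receptor, which adipose cells also express, was 140.3, 128, 113, 122 and 132 CPM in lean mice and 46, 62.8 and 86.6 CPM in obese mice and fell by 0.98 log2 units (SE 0.27, adjusted p by edgeR = 0.0187); without obese mice 1 and 3 the value was -0.86 (edgeR adjusted p = 0.0798). Prlr, the prolactin receptor, ranged over 512 to 1512 CPM in lean and 149.7 to 560.2 CPM in obese mice and was not called. Prlr was called by DESeq2 (adjusted p = 0.0363), in the fit to the 11 control libraries alone (edgeR adjusted p = 0.0161) and without the tumor-associated library of obese mouse 1 (0.0382) or 4 (0.0415). Of 11 basal and milk genes, 3 fell and 1 rose, and the summed level of the list overlapped, at 1450.1 to 1997 CPM in lean and 1433 to 2246 CPM in obese mice. That sum covers all 18 members of the list. It includes the untested Glycam1, a product of lymph node vessels, with 1 count over the lean and 4367 over the obese control libraries. The milk protein genes Csn2 and Wap had 6 and 0 counts over all lean control libraries and 1 and 0 over all obese ones. The part of epithelium in the other results was not tested.

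The higher medians of B cell, T cell and muscle genes rested on obese mice 1 and 3. Of 14 B cell genes edgeR called none, 11 had an unadjusted p under 0.05, DESeq2 called 8 and limma none, and the list median of 3.27 became -0.96 without both mice. Of 17 T cell genes, 5 were called higher, against 9.54% over all genes, and 0 without both mice, where the list median went from 1.91 to -1.13. The lean mice themselves varied. Their T cell sum was 102 and 65.9 CPM in mice 2 and 9 and 20.8 to 28.9 CPM in mice 0, 3 and 6. Obese mice 0, 2, 4 and 8 had 41.6 to 49.7 CPM. The B cell sum was 196 CPM in lean mouse 2 and 17.3 to 37.9 CPM in the other lean mice, against 12.6 to 32.6 CPM in those obese mice. Among 7 tested muscle genes the 6 rises became 1 without obese mice 1 and 3, and with all mice DESeq2 called 2 and limma none. Ttn, titin, went from 6.26 (SE 1.87, adjusted p by edgeR = 0.0254) to -1.15 (edgeR adjusted p = 0.543), and Acta1, skeletal actin and 1 of the 12 largest rises, from 4.66 (SE 1.09, adjusted p by edgeR = 0.00586) to 2.82 (edgeR adjusted p = 0.0202). Without obese mouse 1 alone, Ttn was not called (adjusted p = 0.258), nor was it without lean mouse 0, 3, 6 or 9 (0.0601, 0.0624, 0.0642 and 0.0534). Muscle genes under the filter included Myh4, with 5 counts over the lean and 8126 over the obese control libraries, and Glycam1, a product of lymph node vessels, had 1 and 4367.

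In the tumor-associated pads of the same mice, edgeR called 6802 of 14458 genes (47%) between obese and lean, 3569 of them higher in obese mice (24.7%). Fasn differed by -4.55 (edgeR adjusted p = 5.31e-07) there, Scd1 by -2.91 (edgeR adjusted p = 9.33e-06) and Srebf1 by -1.58 (edgeR adjusted p = 2.46e-05). Trem2 and Gpnmb differed by 2.51 and 2.87. Lep differed by 2.61 in the control pads and by 1.34 in the tumor-associated ones, and Npr3 by 1.80 and 0.36. Whether the diet effect differed between the pads was tested as an interaction, which edgeR called for 711 genes (4.92%), 373 (2.58%) with a more positive and 338 (2.34%) with a more negative diet effect in tumor-associated IWAT. This count was unstable, at 18 without the filter on low counts and between 1 and 3568 when a library was left out. Pde7a, with a difference of -1.06 (edgeR adjusted p = 0.0163), held its call in 22 of 22 such fits. Neither Fasn, Lep nor Trem2 was called, with differences of 0.25 (edgeR adjusted p = 0.749), -1.27 (edgeR adjusted p = 0.096) and -0.69 (edgeR adjusted p = 0.487). Among the smallest p, Ccr2 was lower in obese control IWAT (-0.99) and higher in obese tumor-associated IWAT (1.01), a difference of 2.00 (edgeR adjusted p = 0.031). Aldh9a1, Pdia6, Cd44 and Socs6 also had a more positive diet effect in tumor-associated IWAT, by 0.92, 0.71, 0.98 and 0.70 (edgeR adjusted p = 0.031 each). The effect was more negative there for Ap3m2 and Ctnnal1, by -0.90 (edgeR adjusted p = 0.031) and -1.32 (edgeR adjusted p = 0.031). The falls of Gpd2 and Sqle in obese control IWAT were smaller there or not seen, with differences of 1.40 (edgeR adjusted p = 0.0404) and 1.63 (edgeR adjusted p = 0.0463). These held in 8 and 7 of the 22 fits.

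**Figure D5:**
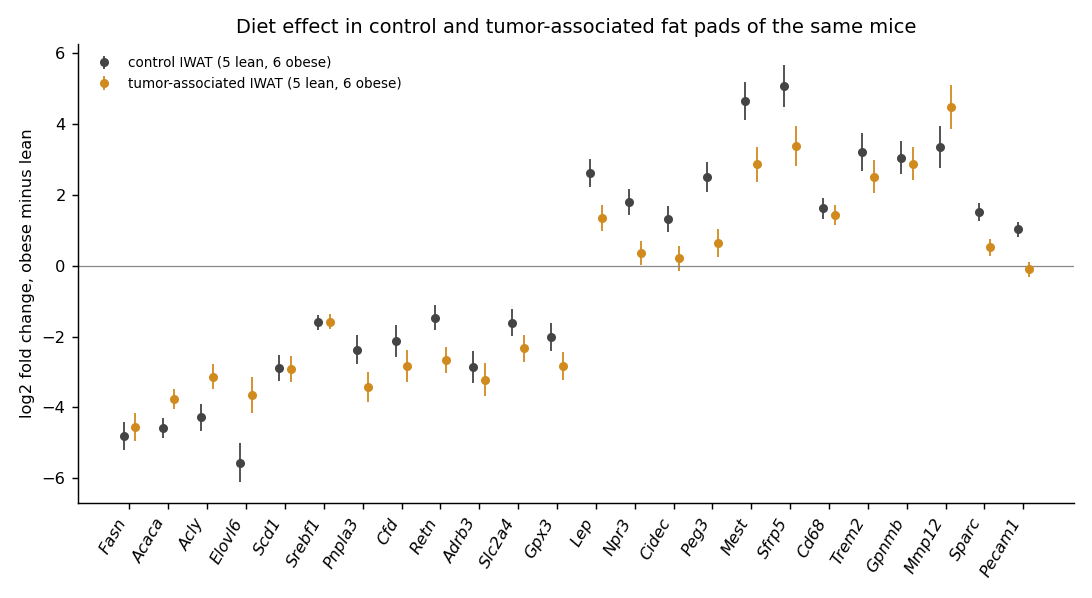
Log2 fold change between obese and lean mice (y axis, with standard error) of 24 genes in control IWAT and in tumor-associated IWAT of the same 11 mice. The lipogenic genes lie below 0 in both pads, Lep and Mest lie above 0 in both, and Pecam1 is at 1.03 in control IWAT and -0.10 in tumor-associated IWAT.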

How the data were processed

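The authors extracted RNA from IWAT, depleted ribosomal RNA, trimmed reads with prinseq, aligned them to mm10 with STAR 2.4.0f and counted them with HTSeq. The strand setting and annotation of the counting are not given in the sources used here, so overlapping and antisense genes cannot be told apart. The deposited values are raw counts per gene symbol. Lines that name no gene (5) were left out, and they hold 40.8 to 48.8% of reads as without a feature in control libraries. Coordinates are from GRCm38, matched by symbol.

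Counts of all 22 libraries (both pads, sharing 1 estimate of the spread) entered edgeR 4.0.16 in R 4.3.3 with filterByExpr, TMM scaling and a quasi-likelihood test over 4 groups. Genes were called at a Benjamini-Hochberg adjusted p under 0.05. DESeq2 1.42.0, limma 3.58.1, other scalings and filters, thinned libraries and left-out libraries were alternatives. Named genes were the 12 largest rises and 12 largest falls among called genes without overlap between groups and with at least 10 counts in every library of the higher group (mitochondrially encoded, ribosomal RNA and unnamed genes left out), the 10 smallest p, members of 37 gene lists and the 5 smallest p in each direction of the interaction. The members and lists were chosen with earlier results of these data known. Count ratios carry exact 95% counting intervals, which cover counting error only.

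Mice with the same number in both diets are different animals, and their deviations correlated at -0.07, -0.54 and -0.30. Both pads of a mouse come from 1 animal (correlations -0.07 to 0.64), and with the mouse as a block 604 interactions were called against 711. Some list members are counted but not reported here by name.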

Additional observations from a re-analysis of the deposited data

Results flagged for a closer look

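Of 362 sets of 5 or 6 control libraries, 1 per named gene or list sum and diet, 15 had an extreme library by Dixon's test, where chance gives about 1 in 20. Lean mouse 6 was high for Slc2a5 (97.0 CPM, others 27.3 to 37.4), Kcng4 (7.74 CPM, others 1.68 to 2.55), Mlxipl (244 CPM, others 113 to 139) and Slc2a4 (422 CPM, others 196 to 228), and low for Arntl (34.0 CPM, others 42.7 to 45.5). Lean mouse 0 was low for Ppargc1a (8.13 CPM, others 17.97 to 24.6). Lean mouse 2 was low for Col6a2 (214 CPM, others 306 to 343) and had the only Chrm4 read of the lean mice (0.175 CPM, others 0). Lean mouse 9 was high for Hp (467 CPM, others 221 to 265). Obese mouse 2 was low for Pde7a (129 CPM, others 154 to 162) and high for Fads1 (115 CPM, others 61.2 to 71.6). Cd44 was low in obese mouse 4 (87.3 CPM, others 110 to 121), Hmox1 high in obese mouse 8 (65.7 CPM, others 40.5 to 46.2) and Chi3l3 high in obese mouse 3 (5.75 CPM, others 0.62 to 1.29). The summed skeletal muscle genes stood at 7937 CPM in obese mouse 1 against 79.0 to 321 CPM in the other obese mice.

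The diet effect differed between the pads by the edgeR interaction for 15 named genes. On the log2 scale, tumor-associated minus control, the difference was 1.40 for Gpd2, 0.92 for Aldh9a1, 2.00 for Ccr2, 0.71 for Pdia6, 0.98 for Cd44 and 0.70 for Socs6. It was 1.63 for Sqle, 0.53 for Sdhb and 2.07 for Col8a1. Negative differences were -1.06 for Pde7a, -0.78 for D830031N03Rik, -1.41 for 4930594C11Rik, -0.90 for Ap3m2, -1.32 for Ctnnal1 and -1.13 for Pecam1. All 15 were called with the mouse as a block, and 4 to 22 of 22 fits without 1 library called each.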

How the results depend on the processing

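The count of 2468 calls, and its split, moved past 1.5 times the value only with the mouse number as a replicate block, which pairs unrelated mice (1207 called, 642 higher and 565 lower), without obese mice 1 and 3 for the genes called lower (645), and on leaving out a library (1606 to 3428 called, 902 to 1903 higher, 704 to 1525 lower). Leaving out obese mice 1 and 3, and the mouse as a block for the interaction, were chosen after seeing the data. The 711 interactions became 18 without the filter on low counts, 2365 by DESeq2, 1309 by limma voom, and 1 to 3568 without 1 library; the cause was not tested. Of 123 called genes among the 144 named, the call was lost in 35 under the block by number, in 14 without obese mice 1 and 3, in 10 by limma voom, in 4 without the filter, in 3 with the 11 control libraries alone and in 1 each by DESeq2 and upper-quartile scaling. The sign of Hmgcs1 reversed under the block by number (-0.019). Without obese mice 1 and 3 that of Lyz2 (-0.061), Cd8a (-1.20), Cr2 (-0.95), Ttn (-1.15), Pdgfra (0.067), Insr (0.017) and Emcn (0.049) reversed. On leaving out a library Pdgfra ranged from -0.12 to 0.038, Insr from -0.098 to 0.012, Emcn from -0.10 to 0.025 and Col1a1 from -0.056 to 0.18, each with both signs. With the 11 control libraries alone, 6 adipokines fell against 3, 4 collagens fell against 1, 7 acute-phase genes rose against 4, 7 imprinted and growth genes rose against 4 and 11 luminal genes fell against 5. At 5759775 to 8598108 counted reads per library, genes under a few counts were not tested.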

Other observations

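Nerve and Schwann cell genes held 2 falls among 11 tested genes and no rise, with a median of -0.13, and 1 fall and 1 rise without obese mice 1 and 3. Over all genes 7.53% were called lower and 9.54% higher. Of 9 tested neutrophil and mast cell genes edgeR called none, 2 had an unadjusted p under 0.05, DESeq2 called 1 and limma none. The 4 globin genes in the table are listed at 0 in every control library, and the 2 erythroid genes tested were not called.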
